A study of Rattus norvegicus with 8 samples.

Results

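Amphiregulin (Areg) and its relatives in the epidermal growth factor (EGF) family were followed in a rat thyroid cell line given iodide. The genes were taken by symbol and comprise the ligands Areg, Ereg, Hbegf, Tgfa, Btc and Egf and the receptors Egfr, Erbb2 and Erbb3, and were read by 12 of the 31099 probe sets of the array (9 of the 14217 named genes). Of these 12 probe sets, 7, which read 6 of the 9 genes, passed the filter on dim signals and were tested. The other 5, which read Ereg, Btc and Egfr, were dim, stayed out of the main fit and are given as values. Areg was chosen by its rise with iodide on these same arrays, so its iodide differences and its line difference with iodide are a description without a test. The other 8 genes belong here as its relatives.

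The cells were the SB5 sub-clone of FRTL-5, a rat follicular line whose growth needs thyrotropin (TSH). All cells were cultured with 5 mU/ml bovine TSH and stably expressed the human TSH receptor. The receptor was wild type or L629F, a mutant that is active without hormone, and the salt was 1 mM sodium iodide or, as the control, 1 mM sodium chloride. This gave 4 groups of 2 arrays each: wild type with chloride, wild type with iodide, L629F with chloride and L629F with iodide. The series asks how iodide alters transcripts in a model of thyroid autonomy, in which thyroid tissue works without TSH control. The labels name 1 line for each receptor, so the receptor cannot be told apart from other differences between the lines. They state neither how long the salts were given nor that replicates were separate cultures, so the p-values rest on a spread between arrays that may be purely technical.

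EGF family ligands are made as membrane proteins, and metalloproteases of the ADAM family cut them off the cell surface. The freed ligand binds EGFR or a related ERBB receptor, which pairs with another receptor of the family and signals through Ras and ERK and through PI3K and Akt. Areg, Tgfa and Egf bind EGFR, while Ereg, Hbegf and Btc bind EGFR and ERBB4. ERBB2 has no known ligand of its own and acts as a partner, and ERBB3 has little kinase activity. In thyroid cells EGF is known as a growth factor that lowers the expression of differentiated functions. TSH acts there mainly through cAMP, which activates CREB, a factor that binds the cAMP response element (CRE).

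The promoter of Areg is shown because Areg is the family gene on which the results turn and because it holds a CRE. RefSeq sequences (GRCr8) were at hand for 7 of the 9 genes, and the 250 bases before the annotated start were searched on both strands. The motifs were the full CRE TGACGTCA, its core TGACG, the AP-1 element TGANTCA, the TATA box TATAAA and the SP1 GC box GGGCGG. The core TGACG is part of the full CRE. The promoter of Tgfa is printed for comparison, as that of the other ligand with a signal well above the filter. Capitals mark the full CRE, the GC box (on either strand) and the TATA box. The windows are chr14:17265642-17265891 on the minus strand for Areg and chr4:120175469-120175718 on the plus strand for Tgfa, both written 5′ to 3′.
Areg: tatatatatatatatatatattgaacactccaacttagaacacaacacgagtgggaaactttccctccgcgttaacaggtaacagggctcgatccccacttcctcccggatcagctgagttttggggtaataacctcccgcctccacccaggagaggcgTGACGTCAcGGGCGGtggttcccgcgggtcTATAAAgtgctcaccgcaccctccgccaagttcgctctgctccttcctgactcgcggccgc
Tgfa: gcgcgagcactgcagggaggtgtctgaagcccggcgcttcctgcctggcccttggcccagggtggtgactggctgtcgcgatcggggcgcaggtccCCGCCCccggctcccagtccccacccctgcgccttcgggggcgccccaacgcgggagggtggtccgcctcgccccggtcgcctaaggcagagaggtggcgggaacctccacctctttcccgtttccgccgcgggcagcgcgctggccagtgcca

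The full CRE of Areg starts at position -91, counted from -1 at the base before the annotated start. Its GC box starts at -82 and its TATA box at -61. Of the 33469 promoter windows of this length, 1.59% held a full CRE, 18.2% the core, 6.34% the AP-1 element, 12.9% the TATA box and 30.5% the GC box. Among the 7 family promoters searched, the full CRE and the TATA box occurred in that of Areg alone. The core occurred in 2, those of Areg and Hbegf (at -193), the GC box in 5, and the AP-1 element in none. A match describes the letters of the window and is no evidence that a factor binds there.

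The arrays shared a common level before deposit, but dim signals were higher on the L629F arrays. The 25th percentile of signal ran from 29.3 to 31.6 on the wild type and from 40.8 to 43.1 on the L629F arrays, and this moves with the receptor comparison of every dim gene below. The ratio of 3′ to 5′ GAPDH signal, a sign of RNA degradation, was 1.22 to 3.13 and highest on wild type iodide replicate 2. Its mean was 2.32 ± 0.716 with iodide and 1.62 ± 0.397 with chloride (SD, n = 4, two-sided exact permutation p = 0.171). The same ratio for beta-actin was higher, at 2.23 to 9.15, and highest on the same array. Its mean was 6.31 ± 2.25 with iodide and 5.27 ± 2.36 with chloride (SD, n = 4, two-sided exact permutation p = 0.543). It was 6.56 ± 0.925 in L629F and 5.02 ± 2.98 in wild type cells (SD, n = 4, two-sided exact permutation p = 0.371). Thyroid genes were bright: 8 of 9 listed markers had a probe set, all 8 passed the filter, and their summed signal was 45094 to 56393 on the wild type iodide arrays, 48747 to 53959 on wild type chloride, 51010 to 55515 on L629F chloride and 53934 to 55734 on L629F iodide. In this list 2 of 8 passed the iodide average (1.66% of all genes did): the iodide transporter gene Slc5a5 was lower (-1.02 ± 0.21; limma, adjusted p = 0.0258) and Hhex higher (0.38 ± 0.09, adjusted p = 0.0433). In the line average 1 of 8 passed (3.16% of all genes did), Duox2, higher in L629F cells (0.50 ± 0.11; limma, adjusted p = 0.0254). Of the markers of other cells, 2 of 6 fibroblast, 2 of 5 leucocyte, 1 of 4 endothelial and 0 of 3 C cell genes on the array passed the filter. The summed signals of these lists stayed between 300.6 and 506 for fibroblasts, 181 and 353 for leucocytes, 149 and 437 for endothelium (149 to 189 on L629F iodide, 229 or more on all others) and 65.9 and 130 for C cells. No marker was listed at 0, and no gene of these 4 lists passed the test in the average over both lines or over both salts.

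Areg was chosen by its rise with iodide, and among the tested genes of the family its group means stood furthest apart. In wild type cells its signal was 987 and 1075 with chloride and 2794 and 2302 with iodide. In L629F cells it was 853 and 710 with chloride and 1302 and 1180 with iodide. The group means rose from L629F chloride through wild type chloride and L629F iodide to wild type iodide. In bulk RNA, a change in the number of expressing cells and in RNA per cell cannot be told apart. Wild type cells given iodide were at 2.47 times the mean of their own control, against 1.59 times in L629F cells. On the log2(signal + 35.3) scale used for all differences below, iodide went with 1.27 ± 0.17 in wild type and 0.65 ± 0.17 in L629F cells, or 0.96 ± 0.12 on average (SE from the fit over all genes, n = 2 arrays per group). The L629F difference minus the wild type difference was -0.62 ± 0.23. These 4 values belong to the pattern for which Areg was chosen and carry no test. Without the 2 arrays of highest GAPDH ratio, which were replicate 2 of each iodide group, they were 1.41, 0.72, 1.06 and -0.69. The replicate with the higher ratio in wild type iodide cells, 3.13 against 1.40, was the one with the lower Areg signal.

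**Figure D1:**
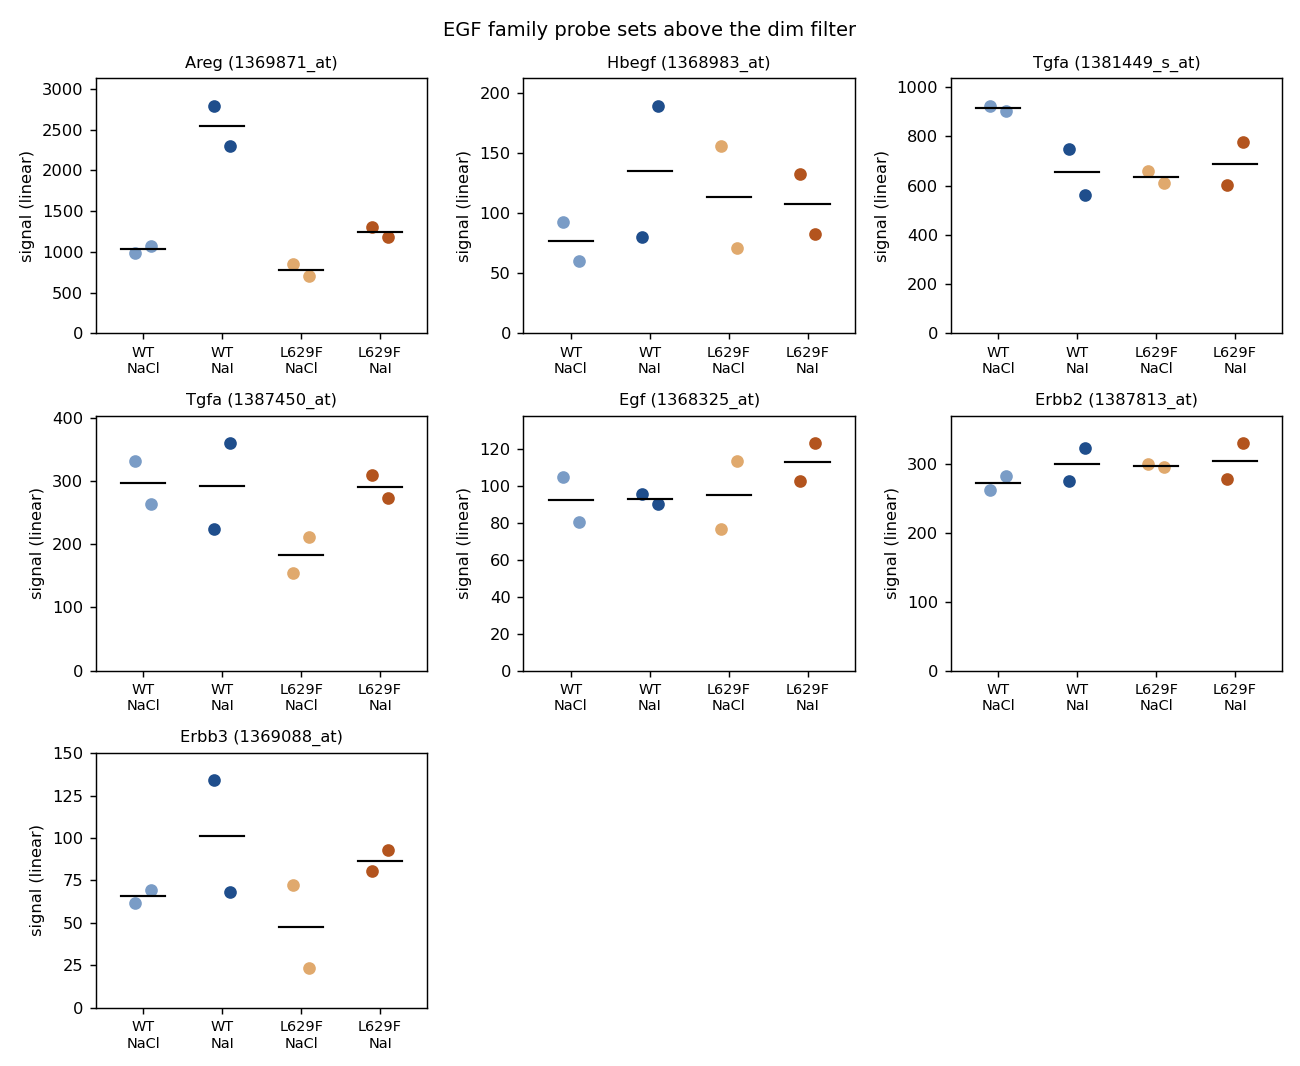
Signal on a linear scale (vertical axes) of the 7 family probe sets above the dim filter in the 4 groups of receptor and salt (NaCl, sodium chloride; NaI, sodium iodide); points are single arrays, bars the mean of 2. For Areg, the wild type iodide arrays (2302 and 2794) lie above all others, and the other panels show overlapping groups or small gaps.

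Areg was lower in the L629F line. Averaged over both salts, the difference of L629F minus wild type was -0.70 ± 0.12 (limma, adjusted p = 0.00632). This average is orthogonal to the iodide differences in the balanced design, and 3.16% of the 10045 genes tested passed it in either direction (2.06% higher and 1.1% lower). With chloride the difference was -0.39 ± 0.17 (adjusted p = 0.327), a 95% interval of -0.75 to -0.03, and did not pass after adjustment. With iodide it was -1.01 ± 0.17. That comparison shares the wild type iodide arrays whose high Areg signal is part of why Areg was chosen. It is not orthogonal to the iodide difference, so the value is a description without a test. Of all genes, 0.508% passed there (0.368% higher, 0.139% lower). The average over both salts includes those arrays too, and the comparison with chloride, which does not, did not pass. With any single array removed, the average ran from -0.77 to -0.63 and the value with iodide from -1.15 to -0.88. With each array centred on all probe sets, the genes called between the lines on average were 145 higher and 1236 lower, in place of 207 and 110; with chloride they were 18 and 73 in place of 34 and 15, and with iodide 17 and 52 in place of 37 and 14. Areg was lower under both scalings.

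The genes of Ereg and Btc lie next to Areg in the GRCr8 gene order of chromosome 14, Btc on the side of lower coordinates and Ereg on the other, followed by Epgn and Mthfd2l. Both neighbours were dim. Ereg, which encodes the ligand epiregulin, had wild type signals of 17.3 and 29.5 with chloride and 42.4 and 68.2 with iodide. The L629F signals were 99.3 and 94.6 with chloride and 47.2 and 46.8 with iodide. The iodide arrays were thus the higher ones in wild type and the lower ones in L629F cells, a pattern unlike that of Areg, and only the L629F chloride arrays exceeded 69.9, the level of the dim filter. On the log2 scale the iodide differences were 0.62 and -0.68, and L629F minus wild type was 1.18 with chloride and -0.12 with iodide.

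Btc, which encodes betacellulin, gave 11.5 and 7.45 in wild type chloride, 39.3 and 12.9 in wild type iodide, 21.6 and 51.5 in L629F chloride and 73.4 and 114 in L629F iodide cells. The L629F iodide arrays were the highest and the wild type chloride arrays the lowest, with the groups between them overlapping. Every L629F signal of Btc exceeded that of both wild type chloride arrays; dim signals in general were higher on the L629F arrays, and the part of this in the difference was not tested. Mthfd2l, a mitochondrial folate enzyme gene beyond Epgn, was bright enough to be tested and changed by -0.18 ± 0.16 with iodide on average (limma, adjusted p = 0.646) and differed by -0.01 ± 0.16 between the lines (adjusted p = 0.965). The other neighbours within 3 genes of Areg (Epgn, a long non-coding RNA and a pseudogene) were not analysed here.

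**Figure D2:**
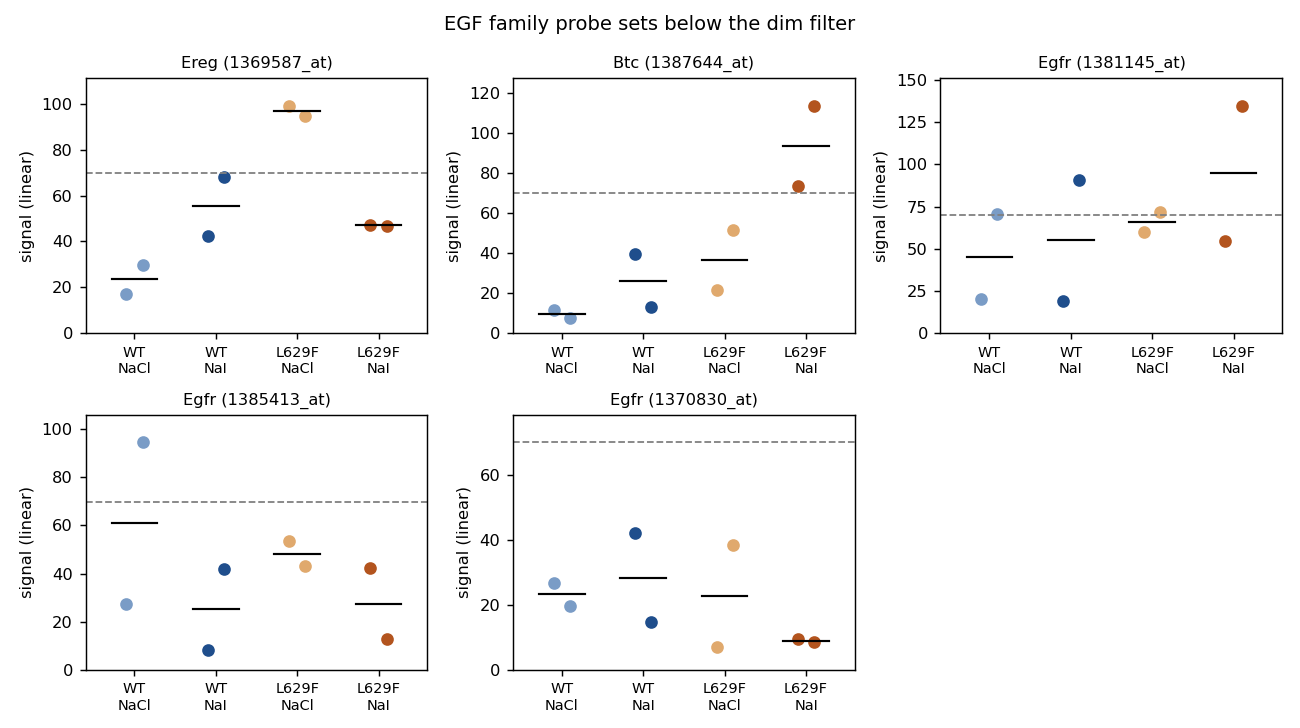
Signal on a linear scale (vertical axes) of the 5 family probe sets below the dim filter in the same 4 groups; points are single arrays, bars the mean of 2, and the dashed line is the filter level of 69.9, which applies to the mean over all arrays on the log scale. For Ereg the L629F chloride arrays (99.3 and 94.6) lie above the line, and the brightest Egfr probe set has replicates far apart, as in wild type iodide cells (19.2 and 91.0).

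Tgfa, which encodes transforming growth factor alpha, was read by 2 tested probe sets. On the brighter of them its signal was 924 and 903 in wild type chloride cells, 747 and 563 in wild type iodide, 660 and 611 in L629F chloride and 602 and 776 in L629F iodide cells. The wild type chloride arrays were the highest. The dimmer probe set gave 331 and 264, 223 and 360, 154 and 211, and 309 and 272 in the same order of groups, so that here the L629F chloride arrays were the lowest. The probe sets gave similar line differences, none past the threshold. With chloride, L629F minus wild type was -0.50 ± 0.19 on the brighter (limma, adjusted p = 0.275, 95% interval -0.91 to -0.09) and -0.61 ± 0.27 on the dimmer (adjusted p = 0.391, over 18625 probe sets, of which 0.15% passed). With iodide it was 0.07 ± 0.19 (limma, adjusted p = 0.913) and 0.03 ± 0.27 (adjusted p = 0.981). Averaged over both salts it was -0.22 ± 0.14 (limma, adjusted p = 0.404) and -0.29 ± 0.19 (adjusted p = 0.446). With chloride, 0.488% of all genes passed (0.338% higher, 0.149% lower) and none of the 6 tested family genes did; Areg and Tgfa had an unadjusted p under 0.05.

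The probe sets of Tgfa did not agree on iodide. In wild type cells the differences were -0.47 ± 0.19 (limma, adjusted p = 0.329) and -0.05 ± 0.27 (adjusted p = 0.977), and in L629F cells 0.10 ± 0.19 (adjusted p = 0.938) and 0.59 ± 0.27 (adjusted p = 0.717). None passed the test; of all probe sets, 0.231% passed for iodide in wild type, 0.0161% in L629F and 0.854% on average, and 0.172% and 1.76% for the line with iodide and on average. Both probe sets had a more positive iodide difference in L629F than in wild type cells, by 0.57 ± 0.27 and 0.64 ± 0.38, which did not pass either (limma, adjusted p = 0.994 and 0.998); of all genes tested, 0% passed this interaction (419 at an unadjusted p under 0.05). Averaged over the lines, the brighter probe set gave -0.19 ± 0.14 and the dimmer one 0.27 ± 0.19, opposite in sign.

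Hbegf, which encodes heparin-binding EGF-like growth factor, was close to the filter. Its signals were 93.3 and 60.1 in wild type chloride, 80.7 and 190 in wild type iodide, 156 and 71.4 in L629F chloride and 133 and 83.2 in L629F iodide cells. Replicates differed as much as groups and all groups overlapped. The iodide difference was 0.55 ± 0.43 in wild type (limma, adjusted p = 0.643) and -0.02 ± 0.43 in L629F cells (adjusted p = 0.997). The 95% intervals, -0.38 to 1.47 and -0.94 to 0.90, leave room for changes as large as that of Areg in L629F cells.

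Egf itself was also close to the filter, with signals of 105 and 80.3, 95.8 and 90.3, 76.7 and 113, and 102 and 123 in wild type chloride, wild type iodide, L629F chloride and L629F iodide cells. No group stood apart. Its iodide differences were 0.01 ± 0.35 and 0.19 ± 0.35 in the 2 lines (limma, adjusted p = 0.991 and 0.932), and L629F minus wild type averaged 0.11 ± 0.25 (adjusted p = 0.841).

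Among the receptors, Erbb2 varied little. Its signals were 263 and 284 in wild type chloride, 277 and 324 in wild type iodide, 300.5 and 296 in L629F chloride and 279 and 331 in L629F iodide cells. Iodide differences were 0.12 ± 0.22 and 0.03 ± 0.22 (limma, adjusted p = 0.88 and 0.99). L629F minus wild type averaged 0.07 ± 0.16 (adjusted p = 0.852; 95% interval -0.27 to 0.40), an interval that does not reach the -0.70 of Areg.

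Erbb3, the kinase-poor receptor, lay just above the filter, at a mean signal of 71.3 against the limit of 69.9, while the brightest probe set of Egfr lay just below it at 59.1. Erbb3 signals were 62.0 and 69.2 in wild type chloride, 134 and 68.4 in wild type iodide, 72.1 and 23.3 in L629F chloride and 80.4 and 93.0 in L629F iodide cells. In L629F cells both iodide arrays exceeded both chloride arrays, and in wild type cells the groups overlapped. The average iodide difference, 0.51 ± 0.31, did not pass (limma, adjusted p = 0.479), and its 95% interval ran from -0.16 to 1.17.

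Egfr, the receptor that binds all 6 ligands, was dim on each of its 3 probe sets. The brightest ran from 19.2 to 135 over the 8 arrays, the next from 8.32 to 94.5 and the dimmest from 7.05 to 42.0. On the brightest, replicates lay far apart in wild type iodide (19.2 and 91.0) and L629F iodide cells (54.8 and 135). The 3 probe sets gave iodide differences of 0.12, -0.64 and 0.09 in wild type cells, so no direction can be given. Erbb4, the remaining receptor of the family, was dim as well, and is not described further.

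The iodide values of Areg carry no test, and none of the 5 other tested genes passed for iodide (limma). In detail, 0 of 5 passed in wild type cells (1, Tgfa, at an unadjusted p under 0.05), where 0.468% of all genes did (0.0796% higher, 0.388% lower). In L629F cells 0 passed (0 unadjusted), against 0.0896% of all genes (0.00996% higher, 0.0796% lower). In the average over the lines 0 passed (0 unadjusted), against 1.66% (0.548% higher and 1.11% lower, or 55 and 112 genes; 99 and 96 with arrays centred on all probe sets), and 0 passed the difference between the lines (0 unadjusted). For the receptor line, 1 of 6, Areg, passed in the average, against 3.16% of all genes, and that average includes the wild type iodide arrays. For the line with iodide Areg is left out, because that comparison rests on the wild type iodide arrays for which it was chosen. There none of the 5 other tested genes passed, against 0.508% of all genes. With iodide on average, the tested ligands other than Areg were at 0.26 (Hbegf), 0.10 (Egf) and -0.19 (Tgfa), and the 2 tested receptors at 0.07 and 0.51, with a median of 0.01 over all genes. Between the lines the ligands ranged from -0.70 to 0.11 and the receptors were at 0.07 and -0.23. Ligands and receptors overlapped in both comparisons.

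**Figure D3:**
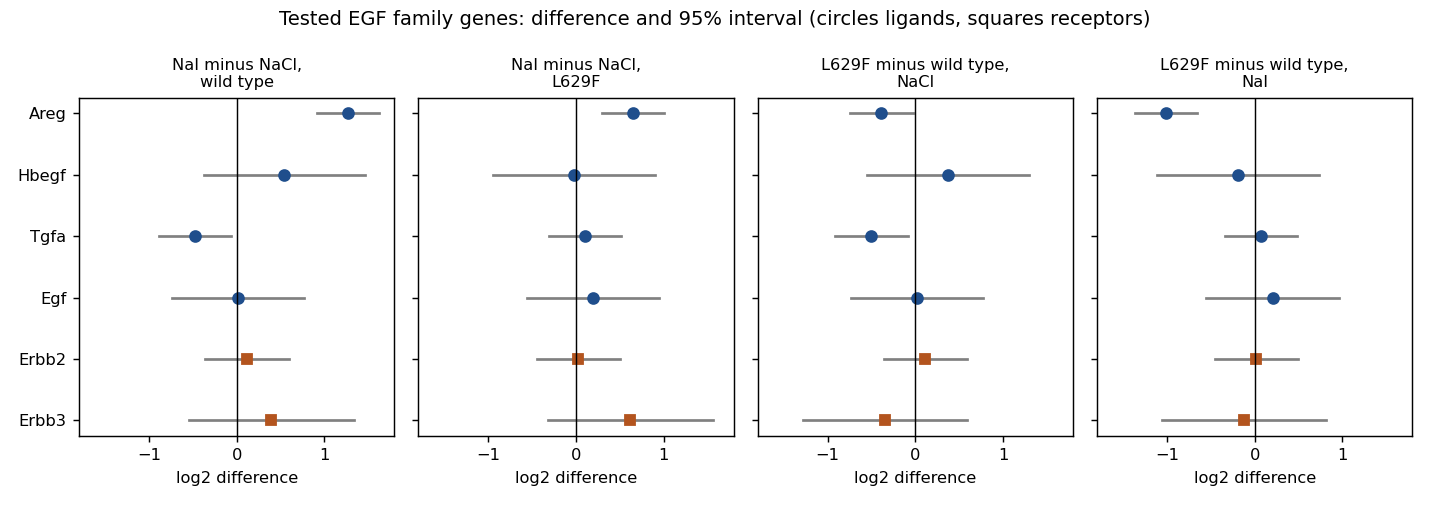
Log2 difference (horizontal axes, log2(signal + 35.3)) of the 6 tested family genes in 4 comparisons, with 95% intervals from the fit over all genes; circles are ligands and squares receptors. Areg lies at 1.27 and 0.65 for iodide and at -0.39 (NaCl) and -1.01 (NaI) for L629F against wild type. Its iodide values and the -1.01 are a description. The intervals of the other genes include 0 or, for Tgfa, end close to it.

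The other genes of the pathway were taken from 6 lists. Of 72 genes in all, 57 had a probe set and 51 were tested. In the average over both lines, 1 was lower and 0 were higher, against 1.66% of all genes, and 12 of 51 had an unadjusted p under 0.05, as had 1531 of all 10045. The gene was Adam15, a metalloprotease, with signals of 2148 and 1620 in wild type chloride, 1307 and 1145 in wild type iodide, 2020 and 2342 in L629F chloride and 1556 and 1672 in L629F iodide cells. Iodide arrays were the lower ones in each line. Its difference of -0.51 ± 0.12 was at the edge of the threshold (limma, adjusted p = 0.04999), and with a single array removed it passed in 1 of 8 fits (0.0443 to 0.249).

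Adam10, another sheddase, was the only pathway gene past the test for iodide within a line. Its wild type signals were 818 and 479 on the chloride and 193 and 271 on the iodide arrays, a difference of -1.32 ± 0.27 (limma, adjusted p = 0.049). The L629F signals were 287 and 335 on the chloride and 341 and 447 on the iodide arrays. Removing any single array ended the call (adjusted p from 0.0577 to 0.476), and its other probe set changed by -0.59 ± 0.33 in wild type cells (adjusted p = 0.577). Adam17, the main protease that frees Areg, had 1296 and 1335 with chloride and 1556 and 1325 with iodide in wild type cells, and an average iodide difference of 0.13 ± 0.14 (limma, adjusted p = 0.698). Among the shedding genes 1 of 7 passed in the average (1.66% of all genes did) and 1 of 7 in wild type cells (0.468%), the calls of Adam15 and Adam10 whose losses are given above.

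Feedback inhibitors of the pathway did not pass in any comparison. Of the 12 tested, 2 had an unadjusted p under 0.05 for iodide on average, and the median was -0.09. Errfi1, an inhibitor that binds the EGFR kinase, had 623 and 597 in wild type chloride, 553 and 350.4 in wild type iodide, 685 and 618 in L629F chloride and 459 and 351 in L629F iodide cells. The iodide arrays were lower in each line, and the difference of -0.54 ± 0.16 did not pass (limma, adjusted p = 0.107). Dusp6, an ERK phosphatase, was at -0.16 ± 0.24 (adjusted p = 0.813). The 10 tested adaptors and members of the Ras and ERK cascade and the 8 of the PI3K and Akt branch had medians of 0.05 and 0.06, with none past the threshold and 1 each at an unadjusted p under 0.05. Of the other ligands, 2 were tested: Nrg1, neuregulin 1, gave 0.31 ± 0.14 with iodide (adjusted p = 0.328), and Nrg2 gave 0.47 ± 0.15 for L629F minus wild type (adjusted p = 0.112).

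Among genes that EGF receptor and ERK signals induce, some differed between the lines. Of 12 tested, 2 were higher and 1 was lower in L629F cells in the average over both salts, against 3.16% of all genes, with a median of 0.24. Egr1, an early zinc finger factor, had 202 and 196 in wild type chloride, 261 and 162 in wild type iodide, 569 and 525 in L629F chloride and 269 and 317 in L629F iodide cells. The L629F chloride arrays were the highest by far. Its line difference was 0.88 ± 0.17 on average (limma, adjusted p = 0.0171) and 1.31 ± 0.25 with chloride (adjusted p = 0.0389).

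Ier2, another early gene, gave 514 and 460 in wild type chloride, 532 and 366 in wild type iodide, 760 and 712 in L629F chloride and 667 and 707 in L629F iodide cells, and was 0.58 ± 0.14 higher in L629F cells (limma, adjusted p = 0.0433). Myc, a growth regulator, differed by -0.49 ± 0.12 (limma, adjusted p = 0.0479), with 795 and 740 in wild type chloride, 872 and 1105 in wild type iodide, 532 and 509 in L629F chloride and 685 and 727 in L629F iodide cells. Junb, an AP-1 subunit, lay below the filter level in L629F iodide cells alone, at 37.8 ± 3.12 against 218 ± 28.3 in wild type iodide cells (SD, n = 2), and L629F minus wild type was -1.79 ± 0.34 there (limma, adjusted p = 0.0400). These genes did not move one way, and Areg and Myc were lower in the L629F line while Egr1 and Ier2 were higher. With a single array removed, the average difference passed in 3 of 8 fits for Egr1 (limma, highest adjusted p 0.0842), in 1 for Ier2 (0.159) and in 1 for Myc (0.171). Egr1 with chloride passed in 2 of them (highest 0.27) and Junb with iodide in 1 (highest 0.165). With iodide against chloride none of the 12 passed in the average (5 at an unadjusted p under 0.05).

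**Figure D4:**
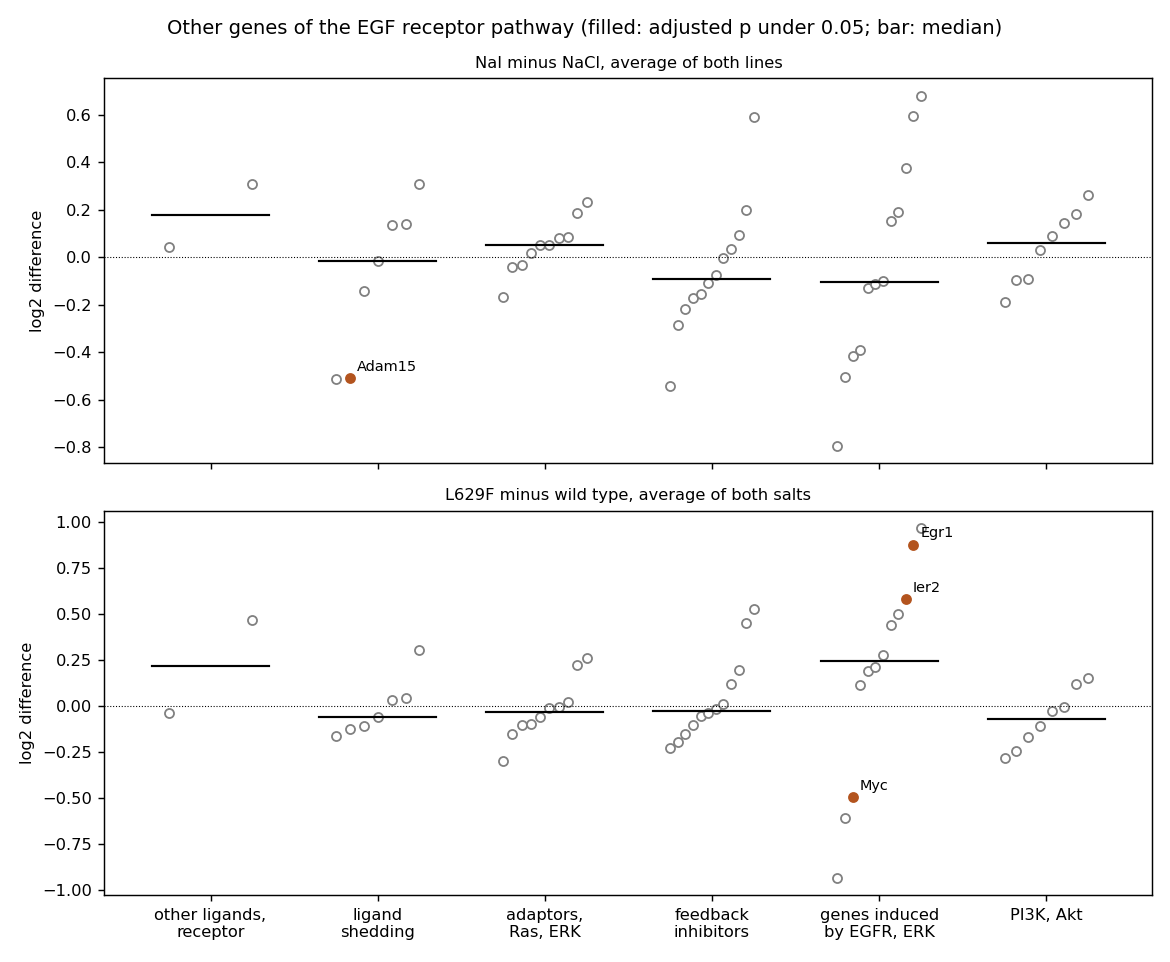
Log2 difference (vertical axes) of 51 other pathway genes by list for iodide (average of both lines, top) and for L629F minus wild type (average of both salts, bottom); each circle is a gene, filled where the adjusted p was under 0.05, and bars are list medians. Adam15 is filled at the top, and Egr1, Ier2 and Myc at the bottom.

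The genes with the pattern most like that of Areg were found by Pearson's r of log2 values over the 8 arrays, as a description. The arrays are 4 groups of 2 and share lines and salts. Of the other 10044 genes tested, 18 had r above 0.95 and 12 below -0.95. The 5 most alike were N4bp2l2 (r = 0.99), the transcription factor gene Nfx1 (0.98), Zfp622 (0.98), the ethanolamine kinase gene Etnk1 (0.97) and Phb2, a prohibitin of the inner mitochondrial membrane (0.97). A high r takes no account of the size of a change. With iodide on average N4bp2l2 changed by 0.28 ± 0.10 and Etnk1 by 0.70 ± 0.08, against 0.96 ± 0.12 for Areg (log2, SE). Etnk1 had a signal of 5934 ± 188 in wild type chloride, 10034 ± 15.6 in wild type iodide, 4245 ± 179 in L629F chloride and 6686 ± 32.9 in L629F iodide cells (SD, n = 2), the same order of groups as Areg. The 3 most opposite were Sparcl1 (r = -0.99), a matrix protein gene, Pyroxd2 (-0.98) and Acat2, an acetyl-CoA acetyltransferase (-0.97). Sparcl1 had 236 ± 2.28 in wild type chloride, 106 ± 12.0 in wild type iodide, 314 ± 67.8 in L629F chloride and 211 ± 6.64 in L629F iodide cells (SD, n = 2). No tested relative of Areg came near these values: r with Areg was 0.71 for Erbb3, 0.27 for Hbegf, 0.08 for Erbb2, -0.11 for Egf and -0.16 for Tgfa. Erbb3, Hbegf and Egf lay close to the filter, so their r is uncertain. That of Tgfa is for its brighter probe set only.

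**Figure D5:**
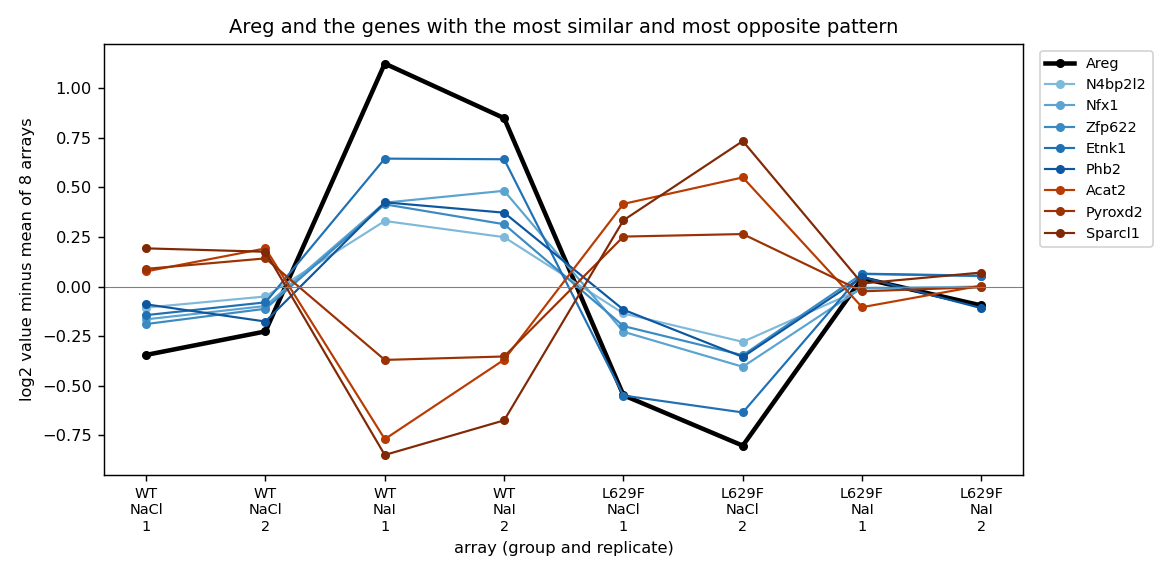
Log2 value minus the mean of the 8 arrays (vertical axis) for Areg and for the 5 genes with the highest and the 3 with the lowest r with it, by array (horizontal axis); lines join the values of a gene. Areg and its 5 most alike genes are highest on the wild type iodide arrays and lowest on L629F chloride replicate 2.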

How the data were processed

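The deposited values were intensities, 1 linear signal per probe set and array, made by the authors in MAS5, according to the labels' list of tools. Version, scaling and detection calls were not given in the sources used here. GEO's probe annotation supplied symbols: 20826 probe sets had 1 symbol, 436 had several and 9780 had none. Left out were 57 controls and, of the rest, the 40% with the lowest mean log2(signal + 35.3) (35.3 is the 25th percentile of all signals; adding it understates the change of dim genes), and the brightest probe set left stood for each of 10045 genes. The arrays' medians spanned 0.06 log2 over the probe sets kept and 0.25 over all, and no centring was applied. The model, in limma 3.58.1 (R 4.3.3; lmFit, then eBayes with trend), held the means of 4 groups (4 residual and 9.52 prior degrees of freedom). All 7 comparisons were two-sided, and p-values were adjusted by Benjamini-Hochberg across the genes (threshold 0.05). The same model was run on all 18625 probe sets kept. The code of the fit was tried on simulated data with independent normal noise. That trial does not bear on RNA quality, the shift of dim signals or whether replicates were separate cultures. The number of arrays limits the precision.

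The members, lists and tests were chosen with earlier results of these data known. Named are all members, the list genes past the threshold (up to 4 per list and comparison), the 5 genes most like and 3 least like Areg and its 3 nearest genes on each side; Adam17, Errfi1, Dusp6, Nrg1 and Nrg2 were added once their values were known. GRCr8 (RefSeq) served for names, gene order and promoters; Ereg and Erbb3 had no promoter entry. Alternatives changed the pseudocount (16, 100), dim filter (none, 20%, 60%), scaling, probe set rule, features tested, variance moderation, arrays fitted, replicate block, GAPDH ratio and threshold (0.1), and left out each array. Figures used matplotlib 3.10.9 in Python 3.11.15.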

Additional observations from a re-analysis of the deposited data

Results flagged for a closer look

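The signals of Ereg ran in opposite directions with iodide in the 2 lines. It was flagged by a rule for such patterns applied to the 12 family probe sets. The share of all probe sets that meet the rule was not counted. Every iodide array exceeded every chloride array in wild type cells, a difference of 0.62 on the log2(signal + 35.3) scale, and every iodide array lay below every chloride array in L629F cells, a difference of -0.68. The gene was too dim for the main model, where the difference between the lines was not tested. In the alternative with no dim filter that difference was -1.30 ± 0.48 (limma, adjusted p = 0.98, unadjusted p = 0.0204), a value for a pattern already seen on these arrays that did not pass. The signals were 17.3 to 68.2 on the wild type arrays, where the 25th percentile of all signals was 29.3 to 31.6, and 46.8 to 99.3 on the L629F arrays, where it was 40.8 to 43.1.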

How the results depend on the processing

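The number of family genes called kept its value under all alternatives in each of the 7 comparisons. Areg is left out of this count for iodide, for the interaction and for the line with iodide. Its line difference with iodide, given without a test, ran from -1.20 to -0.97. For Areg averaged over both salts the line difference ran from -0.87 (arrays centred on all probe sets) to -0.63 (GAPDH ratio as covariate) and passed under all 16 alternatives other than leaving out an array (adjusted p up to 0.039). The iodide differences of Areg were 1.22 to 1.42 (wild type) and 0.61 to 0.74 (L629F). Some differences of the other 5 tested genes changed sign under some alternatives, none of them past the threshold; Tgfa with iodide on average was 0.04 with the mean of its probe sets. The share of all genes that passed depended on the setting: 0% to 2.30% for iodide in wild type, 0% to 0.597% in L629F, 0.179% to 5.24% on average, and for the line 0.0398% to 2.62% with chloride, 0.0398% to 1.68% with iodide and 0.966% to 13.7% on average (13.7% with arrays centred on all probe sets). Replicate numbers are shared by the groups, but nothing in the labels ties them to a culture or day. Deviations of same-numbered arrays correlated at 0.04 to 0.22, positive for each pair of groups. In each group replicate 2 had the higher 3′ to 5′ ratio of both GAPDH and beta-actin, and the main model does not account for this. With the replicate block the family counts were the same, at 0 for each iodide comparison and 1 for the line on average. Of all genes, 231 rather than 47 then passed for iodide in wild type, and 802 rather than 317 for the line on average. Only the groups compared could not be fitted for the averages and the interaction, and with the lowest 60% left out Hbegf, Egf and Erbb3 fell under the filter and have no value. With no dim filter, 0 of 21 tests of Ereg, Btc and Egfr (3 genes, 7 comparisons) passed (limma; 6 at an unadjusted p under 0.05; lowest adjusted p 0.135, Btc in the line average). Among the pathway genes, Adam10 passed for iodide in wild type in 7 of 17 alternatives other than leaving out an array. Adam15 passed for iodide on average in 6 of 16. In the line average Egr1 passed in 14 of 16, Ier2 in 11 and Myc in 10. Egr1 passed with chloride in 13 of 17 and Junb with iodide in 12 of 16. Dim signals limit Ereg, Btc, Egfr, Hbegf, Egf and Erbb3.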
